A study of Rattus norvegicus with 12 samples.

Results

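The genes described here are 10 rat genes of hexose uptake in muscle. Slc2a1, Slc2a3, Slc2a4, Slc2a8 and Slc2a12 encode facilitative transporters of the GLUT family, and Tbc1d1, Tbc1d4, Vamp2, Lnpep and Sort1 encode proteins that move with GLUT4 or steer it between its storage vesicles and the cell surface. The genes were chosen by name, and their probes were found by matching the RefSeq accession that the array files give for each probe, without its version, to the rat gene symbol. In this way 9 of the 10 genes were matched, out of 16581 genes on the array that could be named. All 9 were tested, among 10741 named genes. No probe was matched to Tbc1d4, so its expression was not analysed here.

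The study used L6 cells, a rat skeletal muscle line that fuses into multinucleate myotubes in low serum. The myotubes received 1 of 3 compounds at 60 µM for 24 h, and every compound was dissolved in DMSO. The compounds were GR24, a synthetic strigolactone analog, and the stilbenes pinosylvin and resveratrol. The control group received DMSO alone for the same 24 h. Each of the 4 groups held 3 single-colour Agilent arrays of Cy3-labelled RNA, 12 arrays in all. Slide 1 carried the arrays of replicates 1 and 2, and slide 2 those of replicate 3. Between 58.0% and 64.3% of the spots of an array were well above background. No spot was saturated. The number of arrays limits the precision of every value.

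Skeletal muscle takes up glucose through GLUT1, which sits at the cell surface at rest, and through GLUT4, which is kept in vesicles inside the cell and moves outward on insulin or contraction. Rab GTPase-activating proteins hold these vesicles back until kinases phosphorylate them, and SNARE proteins let the vesicles fuse with the plasma membrane. The arrays measured messenger RNA, so neither the amount of transporter protein, nor its place in the cell, nor uptake itself was measured.

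A value is the log2 signal of a probe minus the 75th percentile of all probes on that array, so 0 is the signal of a probe at that percentile. Values of different probes are not set against each other. Fold changes and adjusted p-values come from 1 limma fit over all 24279 tested probes and all 12 arrays, and a gene was called changed at an adjusted p under 0.05. Where a gene had more than 1 tested probe, the brightest stood for it. Every tested probe of these genes was well above background on all 12 arrays. The p-values measure the spread between these samples, which the study describes as independent experiments.

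With GR24, 3 of the 9 genes were higher than in the control (Slc2a1, Slc2a3 and Lnpep) and 5 were lower (Slc2a4, Slc2a8, Tbc1d1, Vamp2 and Sort1). Over the 10741 named genes, with 1 probe each and p adjusted over all tested probes, 36.1% were higher and 26.7% were lower in this comparison. These shares were 41.5% and 24.2% under quantile normalization, 43.7% and 23.4% with the percentile over spots, and 40.9% and 23.8% in the deposited series table. The count of higher genes lay near the background share, so it is no result about these genes as a set. The 9 genes were chosen with earlier results of these data known and were not tested as a set. The other counts therefore only describe them. With pinosylvin, 2 of the 9 were higher (Slc2a1 and Slc2a4) and 1 was lower (Slc2a8), against a background of 8.59% higher and 9.77% lower. With resveratrol, 2 of the 9 were higher (Slc2a1 and Slc2a3) and 0 were lower, against a background of 8.63% higher and 10.3% lower. At an unadjusted p under 0.05, limma also gave 0 genes lower with resveratrol. The 3 comparisons share the control arrays. With the replicate block, the counts with GR24 stayed at 3 higher and 5 lower, against a background of 41.1% and 30.7%. With pinosylvin the block gave 4 of the 9 higher and 1 lower, against 17.1% and 14.3%, and with resveratrol 4 higher, against 15.8% higher and 15.4% lower. The counts of changed genes thus went from 3 to 5 and from 2 to 4 while the background went up too, and the fold changes stayed as they were.

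**Figure D1:**
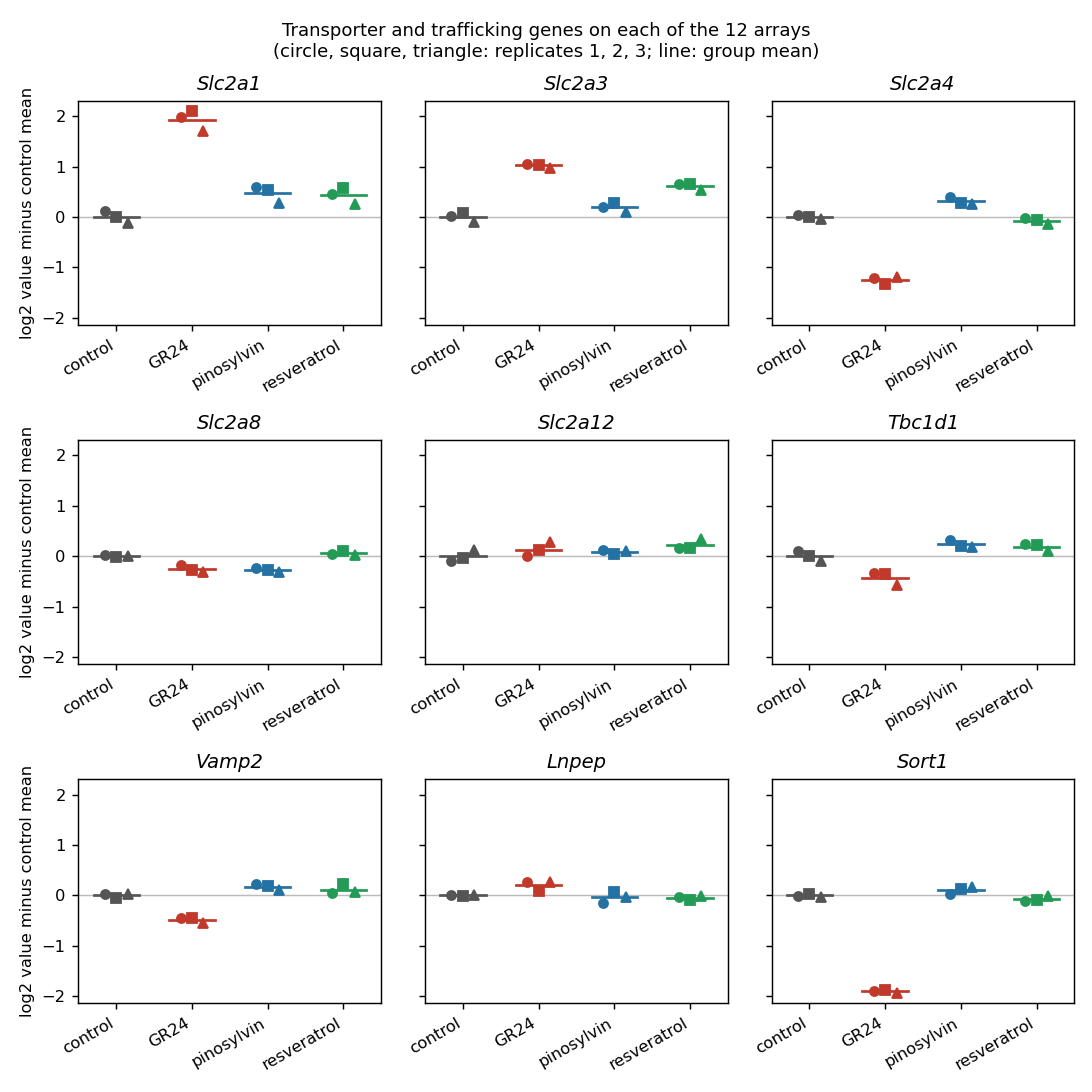
Value of each gene on each of the 12 arrays, with 1 panel per gene. The vertical axis is the log2 value minus the mean of the 3 control arrays of that gene, the horizontal axis gives the group, symbols mark replicates 1, 2 and 3, and the line is the group mean. The GR24 arrays of Slc2a1 stand highest, 1.93 above the control mean on average, and those of Sort1 and Slc2a4 stand lowest, at -1.90 and -1.25.

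Slc2a4 encodes GLUT4, the insulin-responsive transporter of muscle and fat. Its values were 0.80, 0.74 and 0.71 on the control arrays, -0.47, -0.58 and -0.45 with GR24, 1.15, 1.03 and 1.01 with pinosylvin and 0.73, 0.69 and 0.61 with resveratrol. The GR24 arrays were the lowest and the pinosylvin arrays the highest, neither group overlapped any other, and the resveratrol arrays overlapped the control arrays. Slc2a4 was 2.37-fold lower with GR24 (log2 fold change -1.25 ± 0.066 SE, adjusted p = 9.01e-08, and 7.05e-08 with the slide block). It was 1.24-fold higher with pinosylvin (log2 fold change 0.31 ± 0.066 SE, adjusted p = 0.00892). All 3 replicate pairs showed each of these directions. With resveratrol the difference was -0.072, with a 95% interval from -0.22 to 0.075. On slide 1 the difference with GR24 was -1.29 and on slide 2 it was -1.16. The rise with pinosylvin was 0.32 on slide 1 and 0.31 on slide 2, and its call was lost when only the 6 arrays compared were fitted (adjusted p = 0.0532, in a range of 0.00288 to 0.0532 over all alternatives). Among the named genes, Slc2a4 ranked 798 from the most lowered with GR24.

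Markers of myotubes moved in the same comparison. Of 12 such markers 11 were tested, and 9 of them fell with GR24 while 0 rose, at either the adjusted or the unadjusted p in limma. Their median log2 fold change was -1.84, and the median of all tested named genes was 0.08. Averaged over the 11 markers, each taken relative to its own control mean, the GR24 arrays stood at -1.91, -2.01 and -1.93. The pinosylvin arrays stood at 0.18, 0.17 and 0.10, and the resveratrol arrays at -0.40, -0.36 and -0.44. Myog, a transcription factor of muscle differentiation, changed by -5.83 with GR24, and Acta1, skeletal muscle actin, by -3.88. Ckm, muscle creatine kinase, changed by -2.58 and Cav3, the muscle caveolin, by -2.44. Not called with GR24 were Mb (-0.19, adjusted p = 0.424, in a range of 0.0129 to 0.826 over all alternatives) and Des (range 0.167 to 0.974). With pinosylvin 2 of the 11 markers rose (Myog by 0.73 and Tnnt3 by 0.54) and 2 fell (Myh8, -0.44, and Myh1, -0.43), and with resveratrol 6 fell and 0 rose. At the unadjusted p in limma 9 fell and 0 rose with resveratrol. The replicate block gave 5 rises with pinosylvin, against 17.1% of the named genes. The additional 3 were Mb (0.58, adjusted p = 0.0134), Des (0.32, 0.0235) and Ckm (0.25, 0.0342). With resveratrol the block gave 9 falls, against 15.4% of the named genes. The additional 3 were Des (-0.35, 0.0164), Casq2 (-0.22, 0.0298) and Acta1 (-0.23, 0.0306). The largest falls with resveratrol were those of Ckm (-1.04), Myh1 (-0.86), Myh8 (-0.75) and Myog (-0.51), and Cav3 changed by -0.32. The part of these markers in the change of Slc2a4 was not tested. In RNA from whole cultures, fewer myotubes and less RNA per myotube cannot be told apart.

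Some marker calls were lost when some single arrays were left out. The resveratrol call of Myog was lost without control replicate 1 or 2, without any of the 3 pinosylvin arrays or without any of the 3 resveratrol arrays (adjusted p = 0.0504 to 0.108). That of Cav3 was lost without control replicate 1 or 2, GR24 replicate 1, pinosylvin replicate 1 or 2, or resveratrol replicate 1 or 3 (0.0532 to 0.130). In these fits the log2 fold changes lay between -0.53 and -0.48 for Myog and between -0.32 and -0.26 for Cav3. The rise of Myog with pinosylvin had an adjusted p of 0.0768 on slide 1 only, in a range of 0.000193 to 0.0768 over all alternatives.

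Slc2a1 encodes GLUT1, the transporter of basal uptake. Its values were 0.66, 0.54 and 0.41 on the control arrays, 2.52, 2.64 and 2.25 with GR24, 1.13, 1.07 and 0.82 with pinosylvin and 0.99, 1.12 and 0.80 with resveratrol. Every treated array lay above every control array, the GR24 arrays lay above all others, and the stilbene groups overlapped each other. Slc2a1 was 3.82-fold higher with GR24 (log2 fold change 1.93 ± 0.13 SE, adjusted p = 5.30e-07, and 6.65e-09 with the slide block), in all 3 replicate pairs. By size of rise it ranked 106 of the 10741 named genes. The difference was 1.98 on slide 1 and 1.83 on slide 2. With pinosylvin Slc2a1 was 1.38-fold higher (log2 fold change 0.47 ± 0.13 SE, adjusted p = 0.0327). With resveratrol it was 1.35-fold higher (log2 fold change 0.43 ± 0.13 SE, adjusted p = 0.0455). On slides 1 and 2 these differences were 0.50 and 0.40 with pinosylvin, and 0.45 and 0.39 with resveratrol.

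Both stilbene calls of Slc2a1 were lost when some single arrays were left out of the fit without a block. With the replicate block their adjusted p-values were 0.00123 with pinosylvin and 0.00187 with resveratrol. The pinosylvin call was lost without control replicate 2 (adjusted p = 0.0732), control replicate 3 (0.105), pinosylvin replicate 1 (0.114) or pinosylvin replicate 2 (0.104). The resveratrol call was lost on leaving out any of 8 arrays. These were control replicates 1, 2 and 3 (adjusted p = 0.0594, 0.107 and 0.123), resveratrol replicates 1 and 2 (0.114 and 0.156), GR24 replicate 1 (0.0645) and pinosylvin replicates 1 and 2 (0.0541 and 0.0628). Over all 12 single omissions the log2 fold change stayed between 0.40 and 0.56 with pinosylvin and between 0.36 and 0.51 with resveratrol. Both calls were also lost with no filter on dim probes (adjusted p = 0.0970 with pinosylvin and 0.122 with resveratrol) and with only the arrays compared (0.0570 and 0.0609). The adjusted p ranged over all alternatives from 0.000533 to 0.114 with pinosylvin and from 0.000875 to 0.156 with resveratrol.

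Slc2a3 encodes GLUT3, a high-affinity transporter best known from neurons, and had 2 probes. The brighter probe, A_42_P680760, read 3.79, 3.84 and 3.65 on the control arrays, 4.82, 4.80 and 4.74 with GR24, 3.96, 4.03 and 3.87 with pinosylvin and 4.42, 4.42 and 4.30 with resveratrol. The groups stood in the order control, pinosylvin, resveratrol and GR24, with no overlap between any of them. Slc2a3 was 2.04-fold higher with GR24 (log2 fold change 1.03 ± 0.073 SE, adjusted p = 8.38e-07, and 4.26e-08 with the slide block), in all 3 replicate pairs. It was 1.54-fold higher with resveratrol (log2 fold change 0.62 ± 0.073 SE, adjusted p = 0.000287). With pinosylvin the log2 fold change was 0.19 ± 0.073 SE and the adjusted p was 0.107, so the difference did not pass the threshold, with a 95% interval from 0.029 to 0.35. This difference was called with the replicate block (adjusted p = 0.0140), with the slide block (0.0109), under quantile normalization (0.0451) and with the percentile over spots (0.0322). The adjusted p ranged from 0.00695 to 0.314 over all alternatives. On slide 1 and slide 2 the differences from the control were 0.99 and 1.09 with GR24, 0.18 and 0.21 with pinosylvin, and 0.60 and 0.65 with resveratrol.

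The second Slc2a3 probe, A_44_P292510, read -3.53, -3.63 and -3.39 on the control arrays, -1.93, -2.34 and -1.91 with GR24, -2.96, -2.79 and -3.08 with pinosylvin and -2.83, -2.94 and -2.82 with resveratrol. Here the control arrays were again lowest and the GR24 arrays highest, but the stilbene groups overlapped. Its log2 fold changes were 1.45 with GR24, 0.57 with pinosylvin and 0.65 with resveratrol. All 3 were called, with adjusted p-values of 3.18e-06, 0.0101 and 0.00492. With the normexp background they were 0.93, 0.33 and 0.34, and all stayed called. On slides 1 and 2 the differences were 1.44 and 1.48 with GR24, 0.70 and 0.31 with pinosylvin, and 0.69 and 0.57 with resveratrol. The probes carried different accessions, XM_006237296 and NM_017102. With pinosylvin they agreed in direction and lay on different sides of the threshold. As the mean over both probes, the log2 fold change with pinosylvin was 0.38 (adjusted p = 0.00695).

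Slc2a8 encodes GLUT8, a transporter found mainly on membranes inside the cell. Its values were 2.02, 1.97 and 2.00 on the control arrays, 1.82, 1.72 and 1.68 with GR24, 1.77, 1.73 and 1.69 with pinosylvin and 2.03, 2.09 and 2.03 with resveratrol. The GR24 and pinosylvin arrays overlapped each other and lay below all control and resveratrol arrays. Slc2a8 was 1.19-fold lower with GR24 (log2 fold change -0.25 ± 0.059 SE, adjusted p = 0.00374). It was 1.205-fold lower with pinosylvin (log2 fold change -0.27 ± 0.059 SE, adjusted p = 0.0109). The falls were -0.22 and -0.32 on slides 1 and 2 with GR24, and -0.24 and -0.32 with pinosylvin. The change with GR24 was smaller under quantile normalization (-0.17, adjusted p = 0.0243), in the deposited series table (-0.15, 0.0358) and with the percentile over spots (-0.15, 0.0246), and was called in each. Its adjusted p ranged from 0.00106 to 0.0358 over all alternatives. The pinosylvin call was lost on slide 1 only (adjusted p = 0.0599), with only the 6 arrays compared (0.0611) and with no filter on dim probes (0.0659), in a range of 0.00297 to 0.0659. With resveratrol the difference was 0.056, with a 95% interval from -0.075 to 0.19.

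Slc2a12 encodes GLUT12, a transporter also found in muscle and fat. Its values lay between -1.81 and -1.38 over all 12 arrays. The log2 fold changes were 0.13 with GR24 (95% interval -0.064 to 0.33), 0.086 with pinosylvin (-0.11 to 0.28) and 0.22 with resveratrol (0.026 to 0.42). The adjusted p-values were 0.234, 0.588 and 0.121. The resveratrol arrays lay above the control arrays without overlap, and that difference was called with the replicate block (adjusted p = 0.0268), with the slide block (0.0191) and under quantile normalization (0.0373). The adjusted p ranged from 0.0191 to 0.346 over all alternatives. On slides 1 and 2 the differences from the control were 0.12 and 0.15 with GR24, 0.14 and -0.026 with pinosylvin, and 0.23 and 0.21 with resveratrol.

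**Figure D2:**
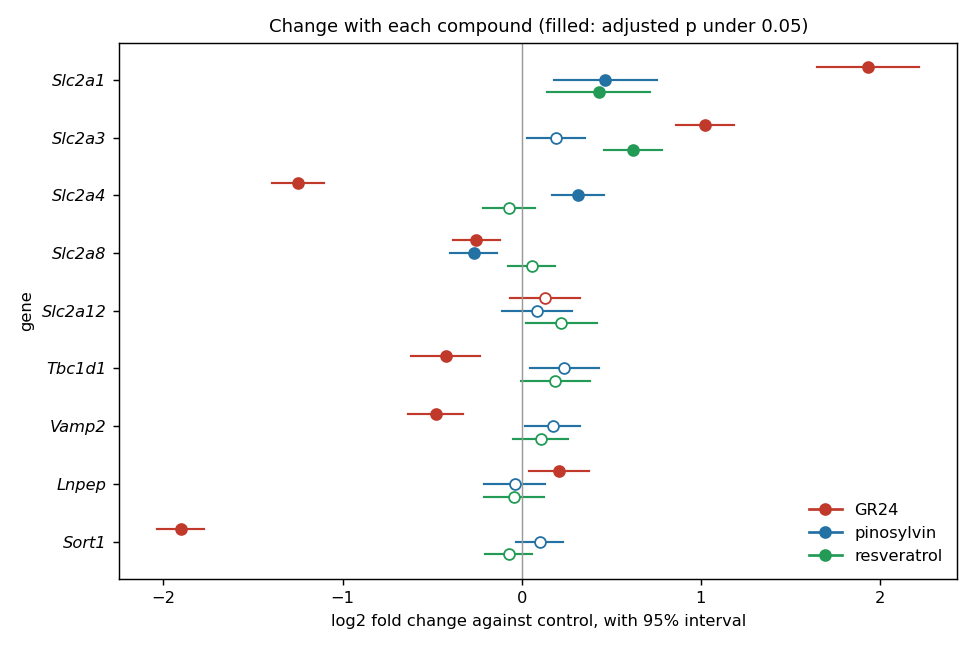
Log2 fold change of each gene against the control for GR24, pinosylvin and resveratrol, on the horizontal axis, with bars for the 95% interval of the limma fit. Filled points had an adjusted p under 0.05. Slc2a4 and Sort1 stand at -1.25 and -1.90 with GR24, and at 0.31 and 0.10 with pinosylvin.

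Sort1 encodes sortilin, a receptor that sorts GLUT4 into its storage vesicles, and had 2 probes with the same accession, NM_031767. The brighter, A_44_P822283, read 0.39, 0.44 and 0.38 on the control arrays, -1.49, -1.48 and -1.53 with GR24, 0.42, 0.52 and 0.56 with pinosylvin and 0.30, 0.31 and 0.38 with resveratrol. The GR24 arrays lay far below all others, and each stilbene group overlapped the control group. Sort1 was 3.74-fold lower with GR24 by this probe (log2 fold change -1.90 ± 0.059 SE, adjusted p = 2.53e-09, and 2.49e-09 with the slide block), in all 3 replicate pairs. It ranked 379 from the most lowered of the named genes. The difference was -1.90 on slide 1 and -1.91 on slide 2. With pinosylvin the difference was 0.10 (95% interval -0.031 to 0.23), and with resveratrol it was -0.072 (-0.20 to 0.059).

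The other Sort1 probe, A_43_P10888, read -1.34, -1.36 and -1.32 on the control arrays, -1.90, -1.82 and -1.90 with GR24, -0.91, -0.999 and -0.98 with pinosylvin and -1.05, -0.97 and -0.98 with resveratrol. On this probe the GR24 arrays were lowest again, while both stilbene groups lay above the control arrays without overlap. The fall with GR24 was 1.45-fold (log2 fold change -0.53 ± 0.056 SE, adjusted p = 1.55e-05). The log2 fold changes with pinosylvin and resveratrol were 0.37 and 0.34, with adjusted p-values of 0.00124 and 0.00216. On slides 1 and 2 the differences were -0.51 and -0.58 with GR24, 0.39 and 0.34 with pinosylvin, and 0.35 and 0.33 with resveratrol. The 2 probes thus gave the same direction with GR24 and different sizes. With pinosylvin they agreed in direction and lay on different sides of the threshold, and with resveratrol their directions differed. Averaged over both probes, the log2 fold changes of Sort1 were -1.22 with GR24, 0.24 with pinosylvin and 0.13 with resveratrol, and those with GR24 and pinosylvin were called. The pinosylvin difference had an adjusted p of 0.00989 in this way, in a range of 0.00989 to 0.636 over all alternatives.

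**Figure D3:**
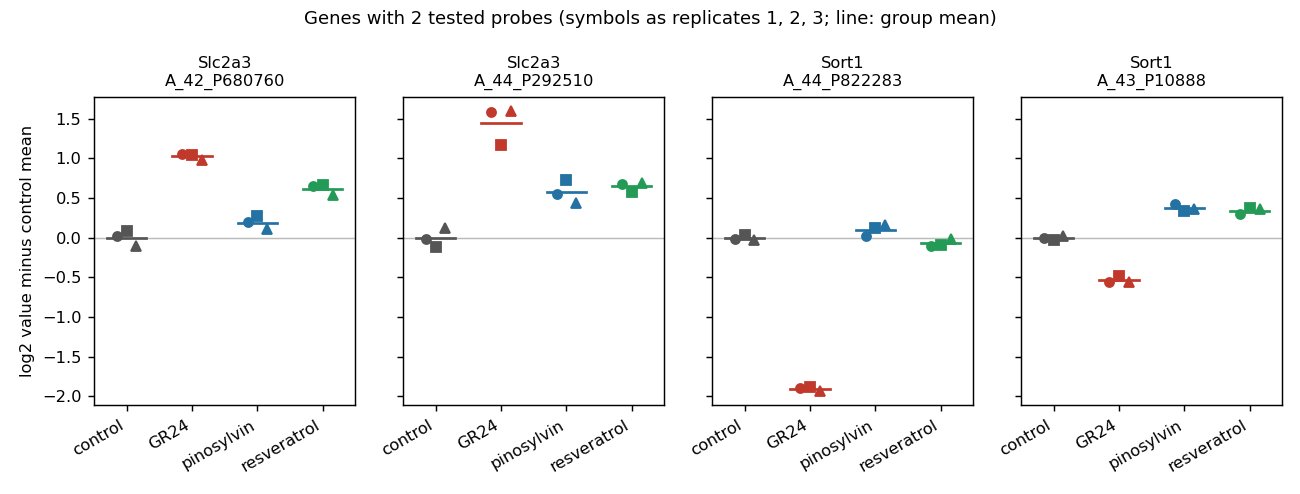
Values of the 2 tested probes of Slc2a3 and of Sort1 on each of the 12 arrays, as log2 values minus the control mean of the probe, with the groups on the horizontal axis. Symbols mark replicates 1, 2 and 3 and lines are group means. The Sort1 probes stand at -1.90 and -0.53 with GR24.

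Tbc1d1 encodes a Rab GTPase-activating protein that Akt and AMPK phosphorylate. Its values were 4.29, 4.17 and 4.08 on the control arrays, 3.85, 3.82 and 3.60 with GR24, 4.50, 4.38 and 4.37 with pinosylvin and 4.42, 4.41 and 4.28 with resveratrol. The GR24 arrays lay below all others, the pinosylvin arrays lay above the control arrays, the resveratrol arrays overlapped them, and the stilbene groups overlapped each other. Tbc1d1 was 1.34-fold lower with GR24 (log2 fold change -0.42 ± 0.087 SE, adjusted p = 0.00170). The fall was -0.40 on slide 1 and -0.47 on slide 2. With pinosylvin the log2 fold change was 0.24 (adjusted p = 0.0941), and with resveratrol it was 0.19 (adjusted p = 0.181). With the replicate block these adjusted p-values were 0.00966 and 0.0252, and with the slide block 0.0109 and 0.0299. The pinosylvin difference was also called under quantile normalization (0.0425), in the deposited series table (0.0491) and with the percentile over spots (0.0268). Over all alternatives the adjusted p ranged from 0.00966 to 0.265 with pinosylvin and from 0.0252 to 0.382 with resveratrol. On slides 1 and 2 the differences were 0.21 and 0.29 with pinosylvin, and 0.18 and 0.20 with resveratrol.

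Vamp2 encodes the SNARE protein of the GLUT4 vesicle. Its values were 4.02, 3.94 and 4.02 on the control arrays, 3.55, 3.54 and 3.44 with GR24, 4.22, 4.17 and 4.11 with pinosylvin and 4.03, 4.21 and 4.05 with resveratrol. The GR24 arrays lay below all others, and both stilbene groups lay above the control group. Vamp2 was 1.40-fold lower with GR24 (log2 fold change -0.48 ± 0.069 SE, adjusted p = 0.000154), with -0.43 on slide 1 and -0.58 on slide 2. The log2 fold changes were 0.17 with pinosylvin (adjusted p = 0.123) and 0.11 with resveratrol (adjusted p = 0.361). On slides 1 and 2 they were 0.21 and 0.089 with pinosylvin, and 0.14 and 0.038 with resveratrol. None of the 12 arrays gave a second Vamp2 probe, A_64_P022595, a signal well above background, and it was not tested.

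Lnpep encodes the insulin-regulated aminopeptidase, which travels in the same vesicles as GLUT4. Its values were -0.40, -0.42 and -0.39 on the control arrays, -0.13, -0.32 and -0.13 with GR24, -0.56, -0.34 and -0.42 with pinosylvin and -0.43, -0.48 and -0.42 with resveratrol. The GR24 arrays were the highest, with replicate 2 close to the highest pinosylvin array. Lnpep was 1.16-fold higher with GR24 (log2 fold change 0.21 ± 0.075 SE, adjusted p = 0.0359), with 0.18 on slide 1 and 0.26 on slide 2. The call was lost without control replicate 1, 2 or 3 (adjusted p = 0.0755, 0.0838 and 0.0623) and without GR24 replicate 1 or 3 (0.121 and 0.103). It was also lost with the normexp background (0.119), with the percentile over detected probes (0.0534), in the deposited series table (0.0582), with no filter on dim probes (0.113), with only the arrays compared (0.0807) and on slide 1 only (0.160). Over all alternatives the adjusted p ranged from 0.00889 to 0.160. The differences with pinosylvin and resveratrol were -0.040 and -0.044, with 95% intervals from -0.21 to 0.13 and from -0.21 to 0.12.

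Pinosylvin and resveratrol share the stilbene skeleton, and resveratrol carries an additional hydroxyl group. At the same dose and time, 3 of the 9 genes differed between them in either direction, against a background of 16.4% of the named genes. Slc2a4 was higher with pinosylvin than with resveratrol by 0.39 ± 0.066 SE on the log2 scale (adjusted p = 0.00348), with 0.38 on slide 1 and 0.40 on slide 2. Of the myotube markers 8 of 11 were also higher with pinosylvin than with resveratrol and 0 were lower (11 and 0 at the unadjusted p in limma), with a median of 0.40. Of the named genes 8.13% were called higher and 8.26% lower in this comparison. Whether the difference of Slc2a4 was separate from that of these markers was not tested. Slc2a3 was lower with pinosylvin, with a difference of -0.43 ± 0.073 SE (adjusted p = 0.00326), with -0.43 on slide 1 and -0.44 on slide 2. This difference was -0.25 (adjusted p = 0.0513) as the mean over both Slc2a3 probes, and its adjusted p ranged from 0.000162 to 0.0513 over all alternatives. By the second probe alone it was -0.079 (95% interval -0.35 to 0.20). Slc2a8 was lower with pinosylvin by a difference of -0.33 ± 0.059 SE (adjusted p = 0.00471), with -0.32 on slide 1 and -0.34 on slide 2.

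For the other 6 genes the stilbenes did not differ past the threshold, which does not show that they act alike. The difference of pinosylvin minus resveratrol was 0.038 for Slc2a1, with a 95% interval from -0.25 to 0.32. It was -0.14 for Slc2a12 (-0.33 to 0.061), 0.048 for Tbc1d1 (-0.14 to 0.24) and 0.067 for Vamp2 (-0.087 to 0.22). It was 0.0036 for Lnpep (-0.16 to 0.17). For Sort1 it was 0.17 (0.041 to 0.30), 0.17 on slide 1 and 0.18 on slide 2. Its adjusted p of 0.0812 became 0.0374 with the replicate block and 0.0341 with the slide block, in a range of 0.0341 to 0.225 over all alternatives. By the second Sort1 probe the difference was 0.033 (-0.092 to 0.16).

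GR24 differed from pinosylvin in 7 of the 9 genes, against a background of 61.8%, and from resveratrol in 8 of the 9, against 56.8%. Slc2a1 was higher with GR24 by 1.47 ± 0.13 SE than with pinosylvin and by 1.503 ± 0.13 SE than with resveratrol. Slc2a3 was higher with GR24 by 0.84 ± 0.073 SE than with pinosylvin and by 0.41 ± 0.073 SE than with resveratrol. For Slc2a4 the differences of GR24 were -1.56 ± 0.066 SE from pinosylvin and -1.18 ± 0.066 SE from resveratrol, and for Sort1 they were -2.004 ± 0.059 SE and -1.83 ± 0.059 SE. The adjusted p-values of these 8 differences lay between 2.33e-09 and 0.000850. By their second probes the differences from pinosylvin and resveratrol were 0.88 and 0.80 for Slc2a3 and -0.91 and -0.88 for Sort1, all called. As the mean over both probes they were 0.86 and 0.60 for Slc2a3 and -1.46 and -1.35 for Sort1, all called, so the size of the Sort1 differences depended on the probe. Tbc1d1 and Vamp2 were lower with GR24 than with either stilbene, by differences between -0.66 and -0.59. Lnpep was higher with GR24 by 0.25 in both comparisons, with adjusted p-values of 0.0163 and 0.0166.

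These calls of Lnpep were lost when some single arrays were left out. The log2 fold changes were then 0.19 to 0.22 against pinosylvin and 0.22 to 0.23 against resveratrol. The call against pinosylvin was lost without GR24 replicate 1 or 3 (adjusted p = 0.0640 and 0.0524) or pinosylvin replicate 1 (0.0682), and the call against resveratrol was lost without GR24 replicate 1 or 3 (0.0658 and 0.0537) or resveratrol replicate 2 (0.0548). Both were lost with no filter on dim probes (0.0602 and 0.0607) and on slide 1 only (0.0963 and 0.0958), and the first also with only the arrays compared (0.0682). Over all alternatives the adjusted p ranged from 0.00488 to 0.0963 against pinosylvin and from 0.00395 to 0.0958 against resveratrol.

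Slc2a8 was lower with GR24 than with resveratrol (-0.31, adjusted p = 0.00128), with -0.19 in the deposited series table and -0.20 with the percentile over spots, both called. Its difference from pinosylvin was 0.016 (95% interval -0.12 to 0.15). The differences of Slc2a12 were 0.045 (-0.15 to 0.24) from pinosylvin and -0.090 (-0.29 to 0.11) from resveratrol.

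The other genes of the pathway were read from 7 lists with 79 genes, of which 70 had a named probe and 62 were tested. For the counts of these lists and of the markers the background is the share of named genes called, higher and lower. These shares were 36.1% and 26.7% with GR24, 8.59% and 9.77% with pinosylvin, and 8.63% and 10.3% with resveratrol. For counts with the replicate block they were 41.1% and 30.7% with GR24, 17.1% and 14.3% with pinosylvin, and 15.8% and 15.4% with resveratrol. No such share is given for counts at the unadjusted p, so those counts are not set against a background. Among other hexose transporters 5 of 11 were tested. With GR24, 1 rose (Slc2a5, a fructose transporter, by 0.59) and 2 fell (Slc2a9, a urate transporter, -0.97, and Slc2a13, a myo-inositol transporter, -0.36). Slc5a2 fell too in the replicate block (-0.44, adjusted p = 0.00908), and a second Slc5a2 probe gave -1.39, called without the block. That probe was also called lower with pinosylvin (-0.72, adjusted p = 0.00810) and resveratrol (-0.89, 0.00238), where the first gave -0.14 and -0.20 and was not called. The Slc5a2 probes thus agreed in direction and lay on different sides of the threshold. As the mean over both, Slc5a2 was called lower with all 3 compounds. With 1 probe per gene, 2 fell with pinosylvin, Slc2a6 (-0.54) and Slc2a5 (-0.52), and 0 rose, also at the unadjusted p in limma. With resveratrol 1 rose, Slc2a13 by 0.29. The second Slc2a13 probe gave -0.27 with GR24 and 0.053 with resveratrol, neither of them called, and the mean over both gave 0.17 with resveratrol (not called). With the replicate block 2 rose with resveratrol, Slc2a13 and Slc2a6 (0.21, adjusted p = 0.00872).

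Of 4 genes for hexose phosphorylation or for arrestins that lower surface transporters all 4 were tested, and 3 rose with GR24, 1 with pinosylvin and 1 with resveratrol. Hk2, the hexokinase of insulin-responsive tissue, rose by 1.07 ± 0.12 SE with GR24 (adjusted p = 2.92e-05) and by 1.03 ± 0.12 SE with pinosylvin (adjusted p = 0.000278). With resveratrol its log2 fold change was -0.024. Hk1, the ubiquitous hexokinase, rose by 0.93 with GR24. Arrdc4, an arrestin that lowers glucose uptake, rose by 0.47 with GR24 and by 0.58 with resveratrol, and these were 0.28 and 0.31 with the normexp background, the second not called (adjusted p = 0.0602). Txnip, the related arrestin that draws GLUT1 and GLUT4 from the surface, had log2 fold changes of -0.42, -0.12 and 0.23 with GR24, pinosylvin and resveratrol. Its adjusted p with GR24 was 0.116, and 0.0130 with the replicate block, in a range of 0.0130 to 0.328 over all alternatives.

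Of the SNARE and fusion proteins 10 of 13 were tested. With GR24, 2 rose, Nsf by 0.50 and Stxbp3 (Munc18c, which binds syntaxin 4) by 0.43, and 0 fell. At an unadjusted p under 0.05, limma gave 3 higher and 0 lower. The median of the list was 0.080. With the replicate block Vamp8 rose as well (0.18, adjusted p = 0.00548) and Vamp5 fell (-0.14, 0.0254). With pinosylvin Vamp5 rose by 0.38 and Vamp3 changed by -0.26, and with the replicate block Napa rose too (0.36, adjusted p = 0.00502). With resveratrol 0 changed in limma and 2 had an unadjusted p under 0.05, and with the replicate block Stxbp3 rose (0.18, adjusted p = 0.0459) and Vamp3 fell (-0.16, adjusted p = 0.0211). Stx4, the SNARE of the plasma membrane, had log2 fold changes of -0.098, 0.13 and 0.055 with GR24, pinosylvin and resveratrol. On this probe replicate 3 read higher than replicates 1 and 2 in every group. Of its 2 other tested probes, 1 gave 0.35, -0.051 and -0.43, none called, and the other gave 0.17 with GR24 (adjusted p = 0.0446), so the Stx4 probes disagreed. Its partner Snap23 had values of 0.14, 0.12 and -0.11, and the first of these was called under quantile normalization (adjusted p = 0.0331) and with the percentile over spots (0.0143), in a range of 0.0143 to 0.483 over all alternatives.

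Of the genes for sorting, tethering and vesicle cargo 19 of 23 were tested. With GR24, 11 rose and 4 fell, with a median of 0.31. The largest rises were those of Exoc5 (0.89), Exoc8 (0.88) and Exoc7 (0.81). Of 8 tested genes of the exocyst, which tethers vesicles to the plasma membrane, 5 rose and 1 fell, Exoc2 (-0.31). The call of Exoc2 was lost without control replicate 2 (adjusted p = 0.0719) or GR24 replicate 3 (0.0716). Exoc4 and Exoc6 had -0.14 and -0.19, neither of them called. The largest fall was that of Myo1c (-1.05), a motor protein of GLUT4 vesicles. With pinosylvin 0 of the 19 changed in limma, and 4 had an unadjusted p under 0.05. With resveratrol 1 changed, the mannose 6-phosphate receptor Igf2r (-0.36). Igf2r was also called with GR24 under all 27 alternatives (adjusted p = 1.18e-06 to 0.00101), and so was Gga1 (0.000432 to 0.0363). With the replicate block Exoc7 rose (0.20, adjusted p = 0.0209) and Exoc6 (-0.28, 0.0417) and Myo1c (-0.23, 0.0449) fell with pinosylvin. With resveratrol it gave 3 rises, Exoc7 (0.24, 0.0102), Exoc3 (0.24, 0.00886) and Gga1 (0.17, 0.0388). It gave 5 falls there, of Igf2r, Myo1c (-0.45, 0.00270), Exoc1 (-0.27, 0.0241), Rhoq (-0.23, 0.0457) and Gga2 (-0.22, 0.0237). Over all named genes the block gave 15.8% higher and 15.4% lower with resveratrol. Rhoq also fell with GR24 (-0.71, adjusted p = 1.37e-05), and its 2 other probes gave -0.48 and -0.24, both called lower. Of these 2 probes, 1 was called lower with pinosylvin (-0.30) and resveratrol (-0.33) without the block. The other gave -0.28 and -0.37 with them, neither called. With the stilbenes the 3 Rhoq probes thus agreed in direction and lay on different sides of the threshold. Their mean was called lower with both (-0.27, adjusted p = 0.0196, in a range of 0.0196 to 0.231 over all alternatives, and -0.31, 0.00852, in a range of 0.00852 to 0.187). Trarg1 was not tested because its probe did not pass the filter on dim probes.

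Of the small GTPases and their regulators 13 of 14 were tested, and with GR24 5 rose and 3 fell. Rab14 (0.32, adjusted p = 0.000829) and Rab8a (0.12, 0.0293) rose as well in the replicate block, and 2 other Rab14 probes gave 0.34 and 0.38 with GR24, both called without the block. Rab11a, of recycling endosomes, rose by 0.79, Rala by 0.64 and Rac1 by 0.52, and Pak1, a kinase that Rac1 activates, changed by -0.68. Pak1 also changed with pinosylvin (0.29) and resveratrol (-0.34). With resveratrol Rab13 changed by -0.35, Rac1 by -0.26 and Ralgapb by 0.26. Ralgapb also rose with GR24 (0.49, adjusted p = 0.000294). Rab13 was also called with GR24 under all 27 alternatives (adjusted p = 4.07e-05 to 0.00622). With pinosylvin Rac1 had -0.20 and Rab8a -0.18, both called with the replicate block (adjusted p = 0.0117 and 0.0154). A second Rab11a probe gave -0.15 with GR24 (not called), and a second Ralgapb probe gave 1.64 with GR24 and 0.15 with resveratrol (not called). Averaged over their probes, Rab11a changed by 0.32 and Ralgapb by 1.06 with GR24. Rab10, a substrate of Tbc1d4, had values of -0.12, -0.021 and 0.051 with the 3 compounds, none of them called.

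All 5 kinases upstream of Tbc1d1 and Tbc1d4 were tested. With GR24 1 rose and 2 fell, and with resveratrol 0 rose and 2 fell, also at the unadjusted p in limma. Akt1 and Prkaa1 were called with neither of these compounds. Prkaa2, a catalytic subunit of AMPK, gave no signal well above background with GR24 or resveratrol. Its fall with GR24 was therefore only bounded, at least 4.22-fold (adjusted p = 1.52e-06). Such a bound sets the mean of the brighter group against the lowest signal well above background on each array of the dimmer group. The probe's own signal was taken where that was higher. With resveratrol the probe's own signal was the higher on each array. The 3.28-fold fall there (adjusted p = 0.00121) is thus the fitted difference (log2 -1.72), uncertain in size and no lower bound. With pinosylvin 2 of 3 arrays measured Prkaa2, and its log2 fold change was -0.68 (adjusted p = 0.0994). With pinosylvin 0 of the 5 changed in limma and 1 had an unadjusted p under 0.05. Akt2 changed by -0.25 with GR24 and by -0.29 with resveratrol, and a second Akt2 probe gave -0.26 and -0.23, neither called. The change of Akt2 with GR24 was -0.16 under quantile normalization and in the deposited series table and -0.15 with the percentile over spots, all called. As the mean over both probes neither Akt2 change was called (adjusted p = 0.0764 and 0.149). Pdpk1, the kinase that activates Akt, rose by 0.40 with GR24, and by 0.77 on a second probe. The median of the list was -0.022 with GR24, also with Prkaa2 at its bound.

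Of the regulators of Slc2a4 transcription 6 of 9 were tested, and with GR24 3 fell and 0 rose, also at the unadjusted p in limma. Klf15 changed by -1.46, with 2 of 3 GR24 arrays well above background, and Thra, a thyroid hormone receptor, by -0.76. No GR24 array gave Myod1 a signal well above background, and its fall was at least 3.21-fold (adjusted p = 5.46e-06). With resveratrol Myod1 changed by -1.11, with 2 of 3 resveratrol arrays well above background. Klf15 rose by 0.49 with pinosylvin and by 0.46 with resveratrol. Nr4a1 also rose with pinosylvin in the replicate block (0.22, adjusted p = 0.00621). The changes of Klf15 were -0.62, 0.32 and 0.27 with the normexp background, all called, and that with GR24 was -0.84 in the deposited series table. The resveratrol change of Myod1 was -0.40 and -0.50 in these 2 alternatives, both called. Mef2a had values of -0.048, 0.23 and -0.027 with the 3 compounds, none called. Mef2d rose by 0.34 with pinosylvin, and its log2 fold change was 0.015 with GR24 and 0.26 with resveratrol, the latter called with the replicate block (adjusted p = 0.00884). A second Mef2d probe gave 1.13 with GR24 (adjusted p = 4.88e-08), 0.21 with pinosylvin (0.0272) and -0.25 with resveratrol (0.0121), so the 2 probes disagreed.

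Several of these calls were lost on leaving out 1 of the 12 arrays. With GR24 the call of Slc2a9 was lost without control replicate 1 or 3, GR24 replicate 1 or 2, any pinosylvin array or resveratrol replicate 2 (adjusted p = 0.0524 to 0.160). That of Arrdc4 was lost without control replicate 2 or 3 or GR24 replicate 1 or 2 (0.0557 to 0.0923). With pinosylvin the call of Vamp3 was lost without control replicate 1 or 2, GR24 replicate 1, any pinosylvin array or resveratrol replicate 2 (0.0520 to 0.118). That of Mef2d was lost without any control array, GR24 replicate 1, pinosylvin replicate 1 or 2, or resveratrol replicate 2 (0.0508 to 0.126). Klf15 lost its pinosylvin call without control replicate 1 or pinosylvin replicate 1 or 3 (0.0786 to 0.0952), and Pak1 without pinosylvin replicate 2 (0.0576).

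With resveratrol the call of Ralgapb was lost without control replicate 1 or 3, GR24 replicate 1 or 2, pinosylvin replicate 1 or 2, or any resveratrol array (adjusted p = 0.0530 to 0.128). That of Rac1 was lost without control replicate 1 or 2, GR24 replicate 2, pinosylvin replicate 1 or 2, or any resveratrol array (0.0524 to 0.133). Klf15 lost its call without control replicate 1 or 2 or any resveratrol array (0.0538 to 0.120). Slc2a13 lost it without control replicate 1 or 2 or resveratrol replicate 1 or 3 (0.0575 to 0.0784), and Arrdc4 without control replicate 2 or 3 or resveratrol replicate 2 or 3 (0.0582 to 0.0978). Akt2 lost it without control replicate 1 or 2 or resveratrol replicate 3 (0.0596 to 0.0739), and Igf2r without control replicate 1 (0.0525) or resveratrol replicate 2 (0.0538).

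The genes whose values were most like those of Slc2a4 over the 12 arrays were found by the root mean square difference of the log2 values, each gene relative to its own control mean, among 10740 other named genes. They were Dok7 (0.0892), Kiaa0040 (0.109), Arhgap28 (0.118), Ache (0.119) and Fxyd1 (0.119). Dok7 and Ache are genes of the neuromuscular junction. The nearest to Slc2a3 were Plk3 (0.0870), Bhlhe40 (0.0921), Pcp4l1 (0.106), Tnfrsf1a (0.108) and Asnsd1 (0.109). Near to Slc2a1 were Twnk (0.122), Cdhr5 (0.159), Icmt (0.165) and Mest (0.174). Under quantile normalization and with the normexp background 2 to 3 of the 5 nearest genes of Slc2a3 and of Slc2a4 were shared with these lists, and under either other percentile all 5 were.

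Promoter sequence was read for 8 of the 10 genes from the RefSeq table of build GRCr8, over the 250 bases before the annotated start. Slc2a3 and Slc2a4 had no entry. Motifs were searched on both strands. The GC box GGGCGG was found before 6 of the 8 genes and in 30.5% of 33469 promoters. The E-box CANNTG was found before 6 of the 8 (65.5% of promoters), and its form CAGCTG, counted within it, before 1 (4007 of the 33469 promoters). The hypoxia response core ACGTG was found before 4 (16.6%) and the antioxidant response core TGANNNNGC before 3 (34.7%). TATAAA was found before 0 (12.9%), and the MEF2 site before 0 (2.96%). Slc2a1 and Sort1 had the largest rise and fall with GR24 among the tested genes with a promoter entry. They are shown with the GC box in capitals on either strand, 3 times before Slc2a1 and 1 time before Sort1. The windows are chr5:138002272-138002521 and chr2:198612245-198612494, both on the plus strand, and a match describes the letters only.
Slc2a1: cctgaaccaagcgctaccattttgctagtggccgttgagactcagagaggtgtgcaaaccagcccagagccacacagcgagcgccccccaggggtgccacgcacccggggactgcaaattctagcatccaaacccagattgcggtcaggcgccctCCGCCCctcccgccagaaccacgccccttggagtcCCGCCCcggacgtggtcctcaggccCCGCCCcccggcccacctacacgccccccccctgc
Sort1: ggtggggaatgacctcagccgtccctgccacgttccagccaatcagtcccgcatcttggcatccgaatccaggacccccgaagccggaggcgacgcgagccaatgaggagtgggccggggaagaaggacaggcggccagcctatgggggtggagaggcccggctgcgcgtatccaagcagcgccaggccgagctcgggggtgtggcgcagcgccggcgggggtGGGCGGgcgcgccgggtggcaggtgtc

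Markers of other cell types were read for the same arrays. Of 5 adipocyte markers 4 had a named probe and 0 were tested, and 4 of their 5 probes gave no array a signal well above background. Of 4 neuron markers 1 was tested, Tubb3, which fell with GR24 (-0.86), pinosylvin (-0.90) and resveratrol (-0.82), and no array gave the probes of the other 3 such a signal. With the normexp background its changes with GR24 and pinosylvin were -0.53 and -0.59, both called. Of 6 fibroblast and undifferentiated cell markers, with GR24 1 rose (Pdgfra by 0.23) and 4 fell (Thy1, -0.90, Myf5, -0.88, Col1a1, -0.81, and Dcn, -0.29). Leaving out GR24 replicate 1 or 2 or control replicate 3 ended the call of Pdgfra (adjusted p = 0.0569 to 0.0643), and leaving out replicate 1 or 3 of either the control or GR24 ended that of Dcn (0.0524 to 0.129). With the normexp background Pdgfra changed by 0.13 with GR24, and with the percentile over spots Dcn changed by -0.19, neither of them called. With pinosylvin 1 of the 6 rose (Pdgfra by 0.43) and 2 fell (Thy1, -0.63, and Col1a1, -0.34), and with resveratrol 1 rose (Pdgfra by 0.35) and 1 fell (Col1a1, -0.43). A second Col1a1 probe gave -1.45, -0.38 and -0.54 with GR24, pinosylvin and resveratrol, all called.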

How the data were processed

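The deposited Agilent Feature Extraction files (version 12.0.0.7) give intensity values that, per the file headers, are background-corrected (processed signal). The deposited series table holds log2 values normalized by the authors, whose scale and centring were not given in the sources used here; its medians were 9.21 to 9.24, and it was used as an alternative. Here, control spots and outlier-flagged spots were left out, log2 processed signals were averaged per probe (45598 probes of 58717 spots), and the 75th percentile over probes was subtracted from each array. Testing covered the 24279 probes with signal well above background on each of the 3 arrays of at least 1 group, and a probe with several spots counted as above background where a share of at least 0.5 of them was. Groups came from the sample labels. The fit used limma 3.58.1 in R 4.3.3 with a mean per group, all 12 arrays, 6 contrasts, empirical Bayes moderation, and p adjusted by Benjamini-Hochberg across the tested probes. Symbols came from the RefSeq gene table of GRCr8, which named 21109 probes. Figures were drawn with matplotlib 3.10.9 in Python 3.11.15.

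The text names all members with each of their probes, up to 4 called genes with the largest change per list and compound, 12 genes linked to GLUT4 whatever they did, list genes called only with the replicate block and the tested exocyst genes (both added after seeing the data), the 5 nearest profiles of Slc2a3 and Slc2a4, and 4 near profiles of Slc2a1. Of the 12, Aspscr1 was not analysed here. The members, the lists and the share of 0.5 were chosen with earlier results of these data known. Whether the replicate numbers of the labels pair the samples was checked on deviations from the group means. These correlated between same-numbered arrays in each of 18 pairs (r across probes 0.191 to 0.744, and 0.191 to 0.470 on slide 1). Arrays of slide 1 with different numbers correlated as well (12 pairs, 0.222 to 0.475). Arrays of different slides correlated negatively (24 pairs, -0.663 to -0.324). The deviations of a group cancel out by construction, which favours negative values between slides. This check therefore does not tell the number from the slide and does not show that the numbers pair the samples. No 2 arrays held identical values. The fit was also run on simulated data with known changes. The simulated noise was independent between arrays, so the simulation does not cover deviations shared within a slide or replicate number. Alternatives covered normalization, background, filters, blocks, moderation, probe choice and each array left out. Sequences came from the RefSeq promoter table.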

Additional observations from a re-analysis of the deposited data

How the results depend on the processing

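Over 27 alternatives, 24 planned and 3 chosen after seeing the data (the percentile taken over spots, slide 1 only, and a filter asking for over 0.5 of a probe's spots above background, with 24262 probes tested), no called change of these genes or of 64 genes of the lists reversed its direction. Of 66 values (11 probes in 6 contrasts), the side of the threshold changed in 43 tests that lost a call and 18 that gained one. The changes of Slc2a1, Slc2a3, Slc2a4, Slc2a8, Tbc1d1, Vamp2 and Sort1 with GR24 against the control were called under every alternative, and that of Lnpep under 16 of 27. For 64 other genes of the lists, 141 tests lost a call and 161 gained one.

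The counts of members changed are given with the share of all named genes changed under the same setting in parentheses. The count of 3 with pinosylvin (18.4%) became 5 under quantile normalization (20.5%), with the replicate block (31.4%), with the slide block (32.0%), as the mean over all tested probes of a gene (18.7%) and with the percentile over spots (23.0%). It was 4 in the deposited series table (18.8%), 2 on slide 1 only (16.7%) and 1 with no filter on dim probes (10.7%). With only the arrays compared it was 0 (11.2%), where limma gave 4 at an unadjusted p under 0.05. The count of 2 with resveratrol (18.9%) became 4 with the replicate block (31.1%) and with the slide block (31.7%), and 3 under quantile normalization (20.8%). It was 1 with no filter on dim probes (11.2%) and with only the arrays compared (12.7%). The filter and the smaller fit change the number of probes or arrays behind each p, and the cause of the other shifts was not tested. Leaving out 1 array, so that 1 group held 2 arrays, gave counts of 7 to 8 with GR24 (56.8% to 63.1%). With pinosylvin they were 2 to 3 (13.1% to 18.9%) and with resveratrol 1 to 2 (13.1% to 19.9%). For pinosylvin minus resveratrol the count was 3 (10.3% to 17.1%). The counts were 6 to 7 for GR24 minus pinosylvin (55.4% to 62.7%) and 7 to 8 for GR24 minus resveratrol (50.1% to 57.8%). The replicate block changed 5 calls of these genes and 30 of the genes in the lists, all gained and given beside their values, and no other call. The slide block changed the same 5 and also 30 of the others. It called Exoc5 (-0.30, adjusted p = 0.0458) and Rhoq (-0.22, 0.0422) with pinosylvin, and not Casq2 and Gga1 with resveratrol.

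Scaling moved the split of calls over all tested probes. In GR24 minus control, 7658 were higher and 6196 lower, against 9223 and 5358 with the percentile over spots, 8719 and 5593 under quantile normalization, and 8516 and 5462 in the deposited series table. The median of all tested probes moved there by 0.0998, 0.080 and 0.064. In GR24 minus resveratrol the percentile over spots moved the median by 0.11 and the split from 6662 higher and 5811 lower to 8707 and 4875. The members changed in these 2 comparisons kept their direction. Dim probes, such as those of Prkaa2 and Myod1 with GR24, gave only bounds.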
